A study of Mus musculus with 12 samples.

Results

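The genes described here are 33 genes of the cell cycle and of proliferation, chosen by name and found in the table of gene counts through their Ensembl identifiers. The table holds 55401 genes, and all 33 chosen genes were among the 20818 that passed the filter on low counts. By role they comprised 3 regulators of entry into S phase, 10 genes of replication licensing and DNA synthesis, 5 genes of the G2/M cyclins with their kinase and activator, 8 mitotic kinases and genes of the checkpoint and anaphase, 5 genes of spindle motors and the kinetochore, and 2 genes used to mark proliferating cells. RNA was sequenced from 12 TC2Ras tumors, 3 in each of 4 groups, taken on Day 21 after 125000 cells had been placed under the skin of both flanks. TC2Ras is a mouse prostate cancer (PCa) line driven by Ras, and all 4 groups carried it. Control tumors grew from TC2Ras cells alone at 0 ppb inorganic arsenic (iAs) in the drinking water, ASC tumors from TC2Ras cells with 1% ASC-GFP (adipose-derived mesenchymal/stromal cells) at 0 ppb, As300 tumors from TC2Ras cells alone at 300 ppb iAs, and ASC_As300 tumors from the mixture at 300 ppb iAs. The ASC-GFP had been isolated from male mice that expressed GFP. All hosts had been kept on low-arsenic chow beforehand, their strain, sex and age were not given in the sources used here, and the tumors of both flanks of a mouse were combined into 1 sample.

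The cell cycle is driven by waves of transcription. E2F factors switch on cyclin E and the replication genes before S phase, and a later program that runs through the DREAM complex, B-MYB and FOXM1 switches on the cyclins, kinases and motors of mitosis. Summed over a tissue, these transcripts are used as a measure of how much of it is cycling, and the antigen encoded by Mki67 is the usual histological marker of proliferation in tumors. In RNA from a whole tumor, fewer cells in cycle and less RNA of a gene in each cell cannot be told apart.

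Levels are given as CPM, the counts of a gene relative to the total of its tumor after scaling by the trimmed mean of M-values (TMM). Differences are log2 fold changes from edgeR's quasi-likelihood fit to all 12 tumors, with their SE and a p-value adjusted over all 20818 genes by Benjamini-Hochberg, and a gene was called when the adjusted p was under 0.05 and the change at least 1.5-fold. Total counts per tumor ran from 39157647 to 55168642, and the 33 genes were covered by 584 to 22398 counts in a tumor. Control replicate 1 stood apart from the others over all genes (first principal component -101.8, against -22.53 to 64.88) and held B and plasma cell markers at 171 CPM in sum, against 2.05 to 11.1 CPM elsewhere. Its median deviation from the Control mean over the 33 genes was 0.00 on the log2 scale, between those of the other Control tumors (-0.03 and 0.03). Skeletal muscle markers summed to 1460 CPM in Control replicate 2 and 1480 CPM in As300 replicate 1, against 1.26 to 295 CPM in the others. The labels name the material as stromal cells while the protocols describe tumors. The prostate gene Pbsn was listed at 0 in all 12 samples, and 6 fibroblast markers summed to 3610 to 6050 CPM.

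All 33 genes were well expressed in every tumor, and their levels varied little. The ratio of the highest to the lowest tumor ran from 1.16 to 2.72 and was under 1.5 for 20 of the 33 genes. Per kb of transcript, mean levels over the 12 tumors spanned 3.62 CPM per kb for Cenpf, a large kinetochore protein, to 163 CPM per kb for Pcna, the sliding clamp of DNA polymerase. These were percentiles 50.6 to 98.0 (median 88.2) of all tested genes with a length. Ube2c at 126 CPM per kb and Birc5 at 101 CPM per kb followed Pcna, and Ccne2 at 7.38 CPM per kb was next above Cenpf. Pseudogenes of Pcna, Ccnb1 and Ccnb2 held at most 285 counts in a tumor, and how reads shared with them were assigned is not known.

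**Figure D1:**
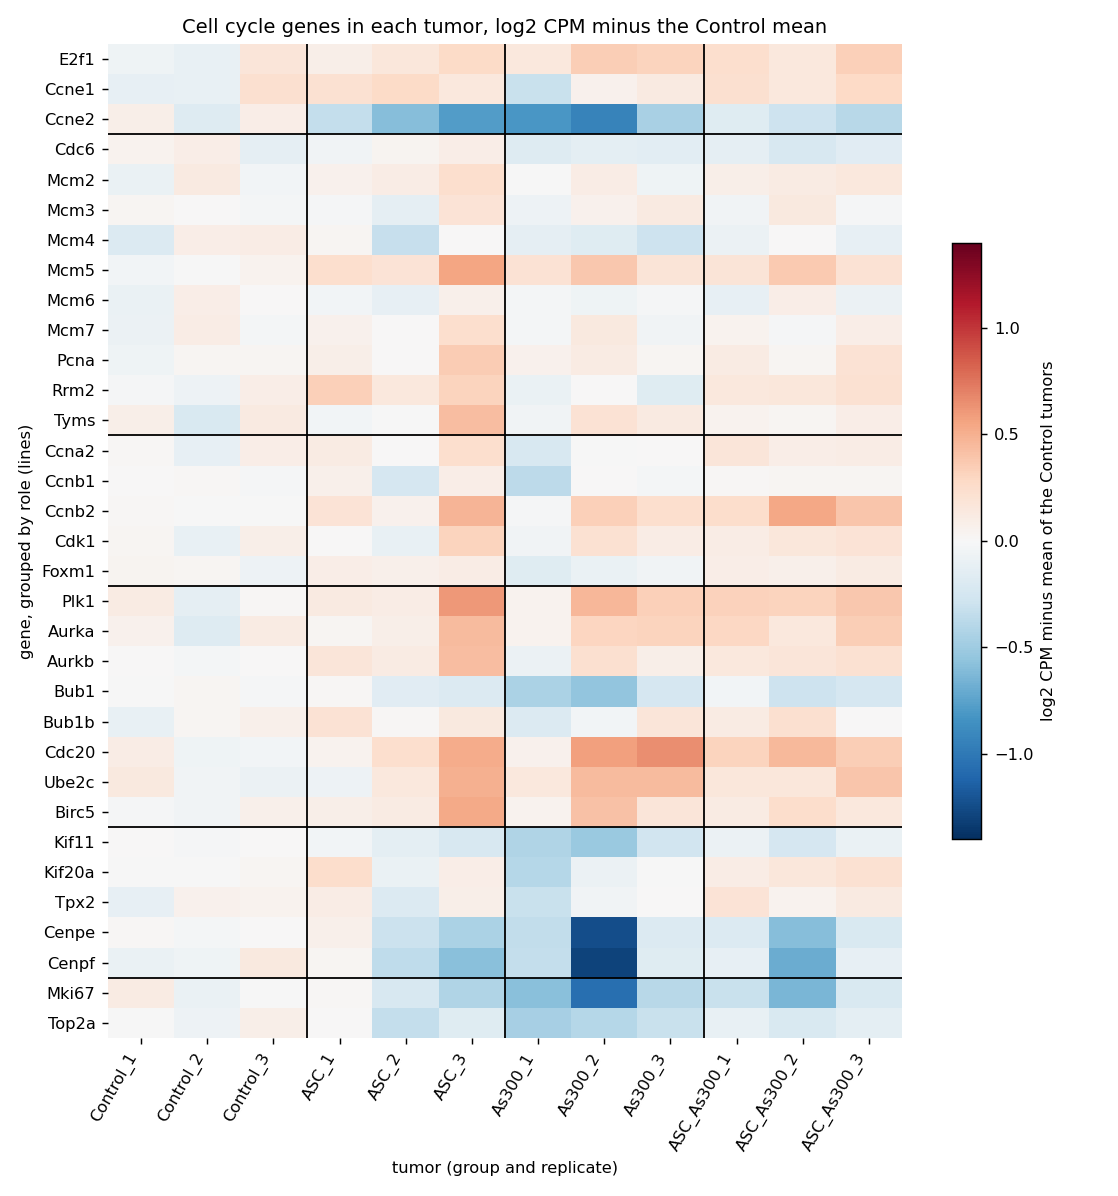
Heat map of the 33 genes (rows, grouped by role) in the 12 tumors (columns, in 4 groups of 3), colored by log2 CPM minus the mean of the Control tumors, red for higher and blue for lower. Cenpf, Cenpe and Mki67 were lowest in As300 replicate 2 (-1.30, -1.24 and -1.05), and Ccne2 was below the Control mean in all 9 treated tumors.

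The comparison of As300 with Control asked what iAs alone did to these genes. Ccne2 fell and was the only one of the 33 to be called, beside a background of 1.06% of all tested genes called in this comparison. Kif11 and Top2a also had adjusted p under 0.05 but changed by less than 1.5-fold. The 33 genes did not move together, as 15 were higher and 18 lower, with a median log2 fold change of -0.04 against -0.03 for all genes. At an unadjusted p under 0.05, 4 of the 33 were higher and 6 lower, where all genes gave 11.2% higher and 13.0% lower. The tumors of both groups did not overlap for 3 genes that were higher and 8 that were lower, against 14.5% and 15.4% of all genes.

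Ccne2 encodes cyclin E2, which activates CDK2 at the entry into S phase (chr4:11191351-11204779, plus strand, GRCm38). Its level was 30.2, 25.3 and 30.4 CPM in the Control tumors and 16.1, 14.8 and 20.9 CPM in the As300 tumors. Every As300 tumor was below every Control tumor. The log2 fold change was -0.73 (SE 0.15, 1.66-fold, edgeR adjusted p = 0.0435). This call was close to the threshold. With 1 tumor left out the log2 fold change stayed between -0.86 and -0.63, but the adjusted p was 0.0555 to 0.186 without Control replicate 1, 2 or 3, As300 replicate 1, 2 or 3, ASC_As300 replicate 1, 2 or 3, or ASC replicate 2. It was 0.0247 without ASC replicate 1 and 0.0226 without ASC replicate 3. Ccne1, which encodes the related cyclin E1, lay at 14.6 to 19.8 CPM in As300 and 16.7 to 21.0 CPM in Control, with a log2 fold change of -0.04. E2f1, an activating E2F factor, stood at 47.5, 46.3 and 55.8 CPM in Control and 55.3, 62.8 and 61.7 CPM in As300. Those groups overlapped in 1 tumor of each, and the difference of 0.26 (SE 0.09, edgeR adjusted p = 0.113) did not pass the test.

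Kif11 encodes the motor that pushes the spindle poles apart (chr19:37376403-37421859, plus strand). It held 94.2, 93.1 and 95.1 CPM in Control and 70.4, 65.8 and 78.1 CPM in As300, a log2 fold change of -0.40 (SE 0.08, edgeR adjusted p = 0.0430). All 3 As300 tumors lay below the narrow Control range. Top2a encodes topoisomerase II alpha, which untangles sister DNA before chromosomes separate (chr11:98992943-99024189, minus strand). Its level was 444, 424 and 470 CPM in Control and 322, 337 and 359 CPM in As300, a log2 fold change of -0.39 (SE 0.09, edgeR adjusted p = 0.0450). Here too the groups did not overlap. Bub1, a kinase of the spindle checkpoint, gave 46.3, 47.8 and 46.0 CPM in Control and 34.4, 32.0 and 39.7 CPM in As300 (log2 fold change -0.40, SE 0.10, edgeR adjusted p = 0.0515). Its groups were separate as well, but it missed the threshold.

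Mki67 stood at 212, 185 and 195 CPM in Control and at 132, 95.2 and 150 CPM in As300. The As300 tumors were all below the Control tumors and differed more among themselves, with replicate 2 lowest. The log2 fold change was -0.65 (SE 0.16, 1.57-fold) and the adjusted p of edgeR was 0.0528. Mki67 was called without ASC replicate 1 (adjusted p = 0.0402) and without ASC replicate 3 (adjusted p = 0.0365), tumors that are in neither group but in the same fit. Cenpe and Cenpf, chosen after their values were seen, encode large proteins of the kinetochore. Cenpe gave 94.3, 91.4 and 93.6 CPM in Control against 73.4, 39.3 and 81.7 CPM in As300, and Cenpf gave 45.5, 46.5 and 53.4 CPM against 38.4, 19.6 and 43.0 CPM. For both, all As300 tumors were below Control and replicate 2 was far below the others, and the adjusted p of edgeR was 0.170 and 0.231.

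Other mitotic genes lay above Control. Cdc20, the activator of the anaphase-promoting complex, stood at 91.1, 81.8 and 83.2 CPM in Control and 89.2, 127 and 134 CPM in As300. As300 replicate 1 lay inside the Control range and the other two lay well above it. The log2 fold change was 0.45 (SE 0.15, edgeR adjusted p = 0.0901), and without As300 replicate 1 it was 0.61 and Cdc20 was called (adjusted p = 0.0485). Ube2c, chosen after its values were seen, encodes the ubiquitin-conjugating enzyme of that complex and gave 116, 102 and 99.7 CPM in Control and 117, 143 and 143 CPM in As300. Ccnb1, which encodes cyclin B1, held 125, 127 and 123 CPM in Control and 96.7, 125 and 123 CPM in As300, with 1 lower tumor and the others level with Control. Mcm2, a subunit of the replicative helicase, was at 90.1, 105 and 93.3 CPM against 95.5, 102 and 91.8 CPM, all within the Control range. By role, all 5 genes of spindle motors and the kinetochore were lower (median log2 fold change -0.40) with 2 of 5 at an unadjusted p under 0.05, while 6 of the 8 mitotic kinases and genes of the checkpoint and anaphase were higher (median 0.22). The 10 replication genes were centered at 0.01, between -0.20 for Mcm4 and 0.26 for Mcm5.

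**Figure D2:**
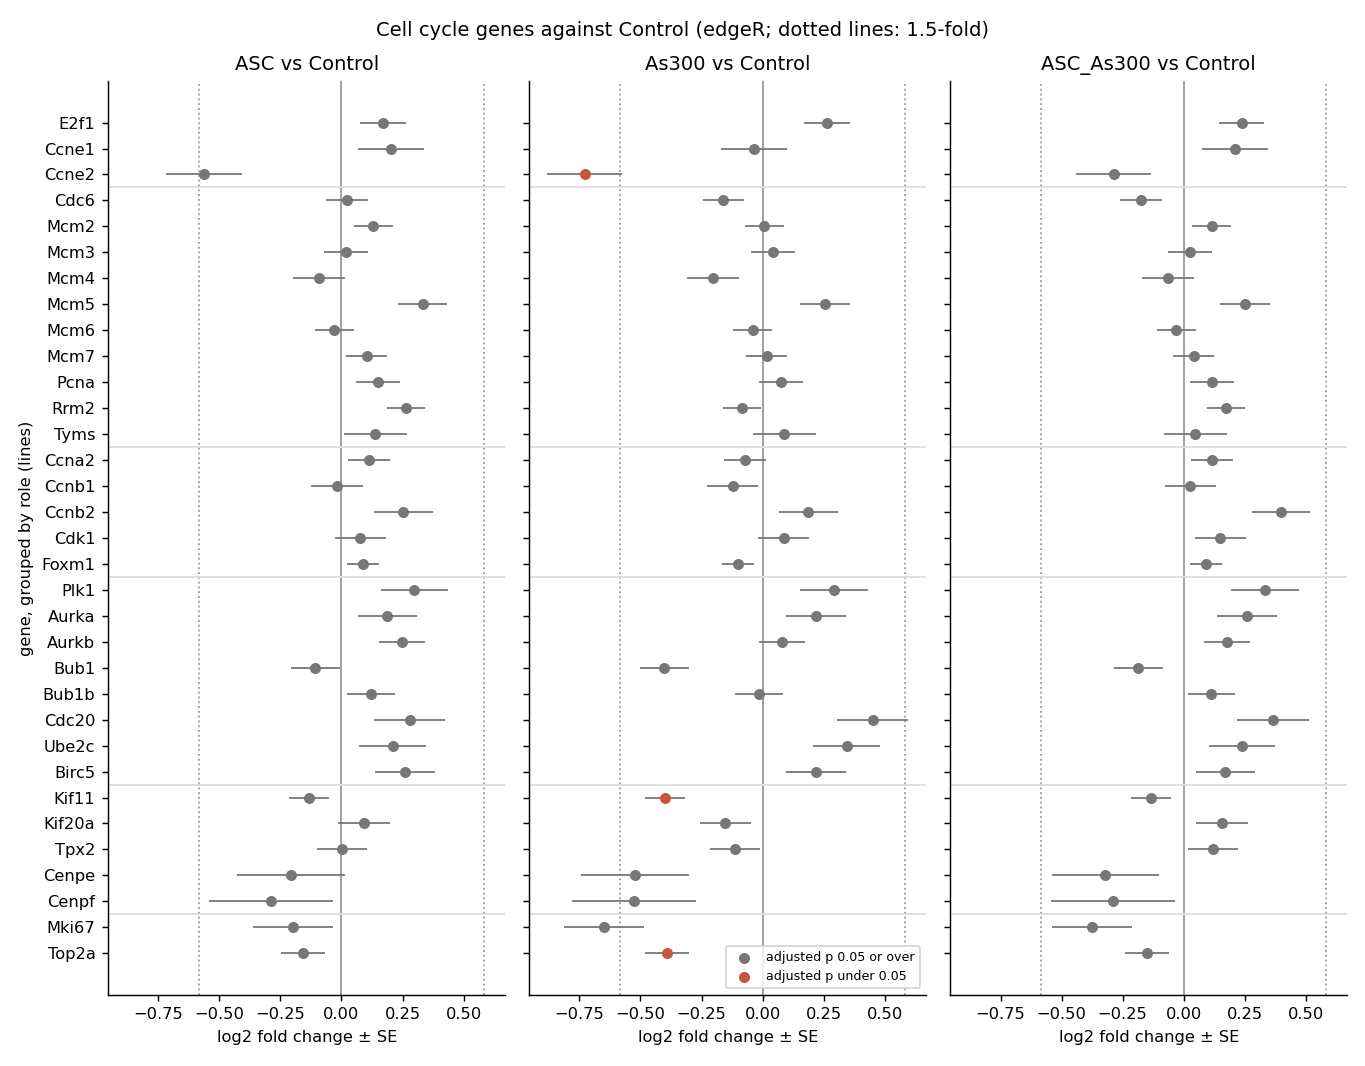
Log2 fold change of each of the 33 genes against Control (points, with the SE as bars) in ASC, As300 and ASC_As300 tumors, with genes grouped by role and dotted lines at 1.5-fold. Only Ccne2 in As300 lay beyond a dotted line with an adjusted p under 0.05, and Kif11 and Top2a had such a p inside the lines.

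The direction of the genes followed the length of their transcripts. Across the 33 genes, the log2 fold change in As300 had a Spearman correlation of -0.67 with transcript length and of 0.75 with transcript GC content. These are descriptions over genes that share the same 6 tumors and that also differ in function. The 11 genes with the shortest transcripts (0.947 to 2.49 kb, Birc5 to Ccnb1) had a median log2 fold change of 0.19 and 8 of 11 were higher. The 11 genes in the middle (2.56 to 3.42 kb) were centered at 0.01, and the 11 with the longest transcripts (3.59 to 11.1 kb, Mcm4 to Cenpf) at -0.20, with 1 of 11 higher. Mki67 at 10061 bases, Cenpf at 11130 bases, Cenpe at 7910 bases, Top2a at 5221 bases and Kif11 at 4819 bases belong to the longest set. Ccne2, with a transcript of 3006 bases and 42.5% GC, was well below others of its length.

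All protein-coding genes, the cell cycle genes included, showed the same order. Over 15442 protein-coding genes tested, the correlation of the As300 fold change was -0.30 with transcript length and 0.47 with GC content. Genes as short as the shortest set had a median of 0.12 (6067 genes) and genes as long as the longest set -0.17 (5807 genes). Within single tumors, the median of the longest set of cell cycle genes minus that of the shortest was -0.02, 0.04 and 0.03 on the log2 scale in Control and -0.38, -0.47 and -0.34 in As300. In ASC it was -0.05, -0.31 and -0.44 and in ASC_As300 -0.24, -0.15 and -0.37. All 9 treated tumors were below all 3 Control tumors, and ASC replicate 1 was nearest to them. Over all protein-coding genes of those lengths the Control tumors gave -0.06 to 0.05, the As300 tumors -0.35 to -0.23 and the ASC_As300 tumors -0.24 to -0.13. Of the ASC tumors, replicate 1 lay within the Control range at -0.01 and the others were at -0.22 and -0.39.

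When each tumor was corrected for GC content and then for transcript length, a step added after the data were seen, the As300 fold changes of several lower genes moved toward 0. Kif11 went from -0.40 to -0.00 and Top2a from -0.39 to -0.03, both of the longest set, and Bub1, at 3421 bases the longest of the middle set, from -0.40 to -0.02. Ccne2 went from -0.73 to -0.43 (edgeR adjusted p = 0.210). The correlation of the 33 genes with length was then -0.44, so the order weakened without being lost. The cause of the trend with length and GC content was not tested.

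**Figure D3:**
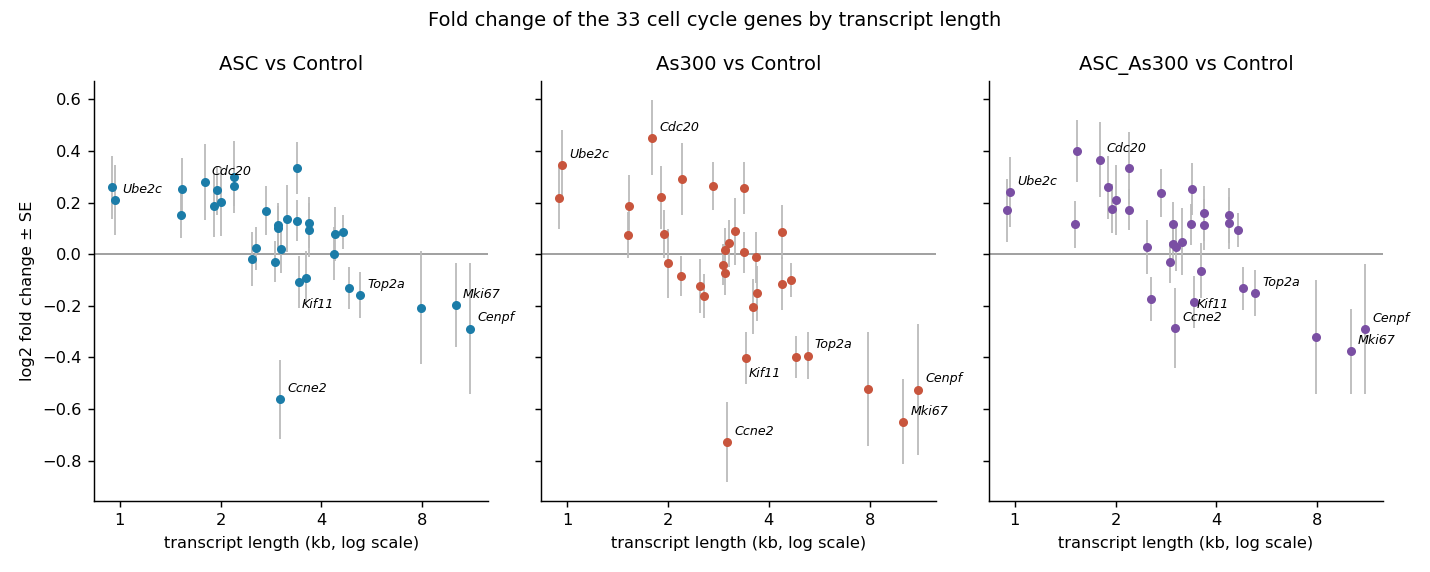
Log2 fold change against Control of the 33 genes (points, with the SE as bars) by transcript length in kb on a log axis, for ASC, As300 and ASC_As300 tumors. In all 3 panels short transcripts such as Ube2c and Cdc20 lay above 0 and long ones such as Mki67 and Cenpf below it, and Ccne2 lay under the trend, furthest in ASC and As300.

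**Figure D4:**
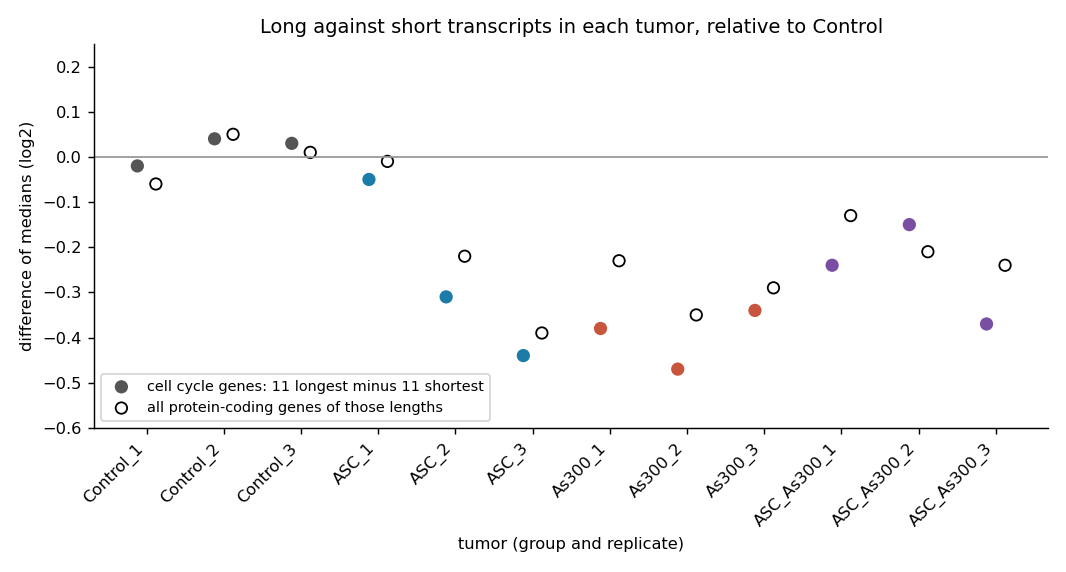
Median log2 difference from Control of the 11 longest cell cycle transcripts minus that of the 11 shortest in each tumor (filled points), and the same for all protein-coding genes of those lengths (open points). The Control tumors lay between -0.06 and 0.05, and the filled points of the As300 tumors between -0.47 and -0.34.

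Promoter windows of these genes were searched for motifs known from the E2F and the late cell cycle programs. Windows from 250 bases before to 50 bases after the start, from RefSeq on GRCm38.p6, were at hand for 26 of the 33 genes (27 windows, as Mcm7 has a pair). The search covered both strands and looked for the cell cycle genes homology region (CHR, TTTGAA), the CCAAT box (CCAAT) and an E2F motif (TTTNNCGC), whose matches overlapped once. The CHR was found in 44.4% of the windows, against 17.9% of all 32851 RefSeq windows and 12.9% of those of tested genes. CCAAT was found in 81.5%, against 37.4% and 37.1%, and the E2F motif in 25.9%, against 5.17% and 7.32%. The window of Rrm2 held 1 CCAAT box and no CHR, and the windows of Ccne1, E2f1 and Birc5 held none of the 3 motifs. Windows for Ccne2, Foxm1, Aurkb, Ccna2, Mcm4, Tpx2 and Kif20a were not analysed here. A match is a description of the letters in the window and not of binding. Shown 5′ to 3′ in the direction of the gene are the 200 bases before the start of 3 genes that were lower in As300 and of Cdc20, which was higher, with matches to the CHR and CCAAT on either strand (TTCAAA and ATTGG on the other strand) in capitals.
Top2a: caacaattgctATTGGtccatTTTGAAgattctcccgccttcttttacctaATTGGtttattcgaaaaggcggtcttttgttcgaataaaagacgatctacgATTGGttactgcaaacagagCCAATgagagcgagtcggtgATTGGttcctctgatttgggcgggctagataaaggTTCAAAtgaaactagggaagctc
Kif11: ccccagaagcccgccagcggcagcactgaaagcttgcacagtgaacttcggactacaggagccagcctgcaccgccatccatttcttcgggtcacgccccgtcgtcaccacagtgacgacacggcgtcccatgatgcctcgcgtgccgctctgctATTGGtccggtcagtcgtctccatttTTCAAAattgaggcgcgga
Mki67: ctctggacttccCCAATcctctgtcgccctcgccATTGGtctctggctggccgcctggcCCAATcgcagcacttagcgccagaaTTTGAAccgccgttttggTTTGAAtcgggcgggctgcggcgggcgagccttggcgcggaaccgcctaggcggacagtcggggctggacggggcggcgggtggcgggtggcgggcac
Cdc20: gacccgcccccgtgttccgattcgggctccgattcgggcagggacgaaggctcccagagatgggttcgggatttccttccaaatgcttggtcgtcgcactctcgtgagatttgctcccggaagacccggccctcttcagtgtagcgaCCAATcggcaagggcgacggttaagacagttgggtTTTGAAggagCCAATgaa
The stretches were chr11:99024190-99024389 (minus strand) for Top2a, chr19:37376182-37376381 (plus strand) for Kif11, chr7:135716380-135716579 (minus strand) for Mki67 and chr4:118437344-118437543 (minus strand) for Cdc20. These stretches held 2 CHR and 5 CCAAT boxes for Top2a, 1 and 1 for Kif11, 2 and 3 for Mki67 and 1 and 2 for Cdc20. The 4 genes were picked for having matches and a low p, so their holding both motifs is no result. Bub1, also lower in As300, had 2 CCAAT boxes and no CHR in its window.

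The comparison of ASC with Control asked what admixed stromal cells did to these genes without iAs. None of the 33 was called with edgeR, beside a background of 0.721%. At an unadjusted p under 0.05, 3 were higher (Rrm2, Mcm5 and Aurkb) and 1 lower (Ccne2), against 8.55% and 6.87% of all genes. DESeq2 called none either. Of the 33, 23 were higher and 10 lower, with a median log2 fold change of 0.10 against 0.00 for all genes. The groups did not overlap for 6 higher and 2 lower genes, against 9.94% and 9.01% of all genes.

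Ccne2 held 22.7, 18.8 and 16.6 CPM in the ASC tumors, all below the Control tumors, with a log2 fold change of -0.56 (SE 0.15, edgeR adjusted p = 0.133). Without ASC replicate 1, its highest ASC tumor, it was -0.67 and called (adjusted p = 0.0498). Rrm2 encodes the small subunit of ribonucleotide reductase, which makes deoxynucleotides (chr12:24708241-24714146, plus strand). It stood at 66.6, 64.3 and 72.0 CPM in Control and 84.7, 74.9 and 83.9 CPM in ASC (log2 fold change 0.26, SE 0.08, edgeR adjusted p = 0.160). All ASC tumors lay above all Control tumors. Mcm5, another helicase subunit, gave 129, 131 and 137 CPM in Control and 155, 151 and 194 CPM in ASC (log2 fold change 0.33, SE 0.10, edgeR adjusted p = 0.165). Aurkb, the kinase of the chromosomal passenger complex, gave 66.7, 64.8 and 66.6 CPM and 74.5, 71.7 and 88.9 CPM (log2 fold change 0.25, SE 0.09, edgeR adjusted p = 0.241). For both genes the groups were separate and ASC replicate 3 was the highest tumor. Over the 33 genes that tumor had a median deviation of 0.19 from the Control mean, against 0.06 and 0.00 in the other ASC tumors, and without it the median log2 fold change was 0.04.

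ASC tumors showed the same trend with length. The correlation over the 33 genes was -0.72, against -0.26 over all protein-coding genes, and the shortest set had a median of 0.25 with 10 of 11 higher while the longest set had -0.09 with 5 of 11 higher. Mki67 held 200, 170 and 147 CPM and Top2a 449, 354 and 395 CPM in ASC. In both, ASC replicate 1 lay within the Control range and the other ASC tumors below it.

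In ASC_As300 against Control, the comparison of both treatments with none, no gene of the 33 was called with edgeR or with DESeq2, beside a background of 0.807%. At an unadjusted p under 0.05, 6 were higher and 1 lower (Mki67), against 8.70% and 6.50% of all genes. The tumors did not overlap for 14 higher and 7 lower genes, against 13.5% and 12.2% of all genes. Over the 33 genes, separate or not, the differences had a median size of 0.17 on the log2 scale, against 0.24 for all genes. The SE of the 33 genes had a median of 0.10, against 0.23 for all genes. The median log2 fold change was 0.11, against -0.02 for all genes.

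Ccnb2, which encodes cyclin B2, had the smallest p. It held 64.9, 63.4 and 63.8 CPM in Control and 76.1, 93.2 and 84.0 CPM in ASC_As300, with no overlap (log2 fold change 0.40, SE 0.12, edgeR adjusted p = 0.159). Cdc20 held 106, 117 and 108 CPM in ASC_As300, all above Control (log2 fold change 0.37, SE 0.15, edgeR adjusted p = 0.265). Mcm5 held 149, 171 and 152 CPM, also all above Control (log2 fold change 0.25, SE 0.10, edgeR adjusted p = 0.273). E2f1 was at 58.8, 55.1 and 62.5 CPM, of which replicate 2 lay below the highest Control tumor (log2 fold change 0.24, SE 0.09, edgeR adjusted p = 0.263). Mki67 was at 159, 126 and 171 CPM, all below Control (log2 fold change -0.38, SE 0.16, edgeR adjusted p = 0.305). Ccne2 was at 25.4, 23.3 and 21.7 CPM and its replicate 1 reached the lowest Control tumor (log2 fold change -0.29). Ccnb1 at 127, 128 and 128 CPM and Mcm2 at 102, 105 and 106 CPM were close to Control. All 11 genes of the shortest set were higher (median 0.21), 5 of 11 of the longest were (median -0.06), and the correlation with length was -0.65, against -0.26 over all protein-coding genes. The 3 comparisons with Control share the same Control tumors, and so their likeness is no independent evidence.

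**Figure D5:**
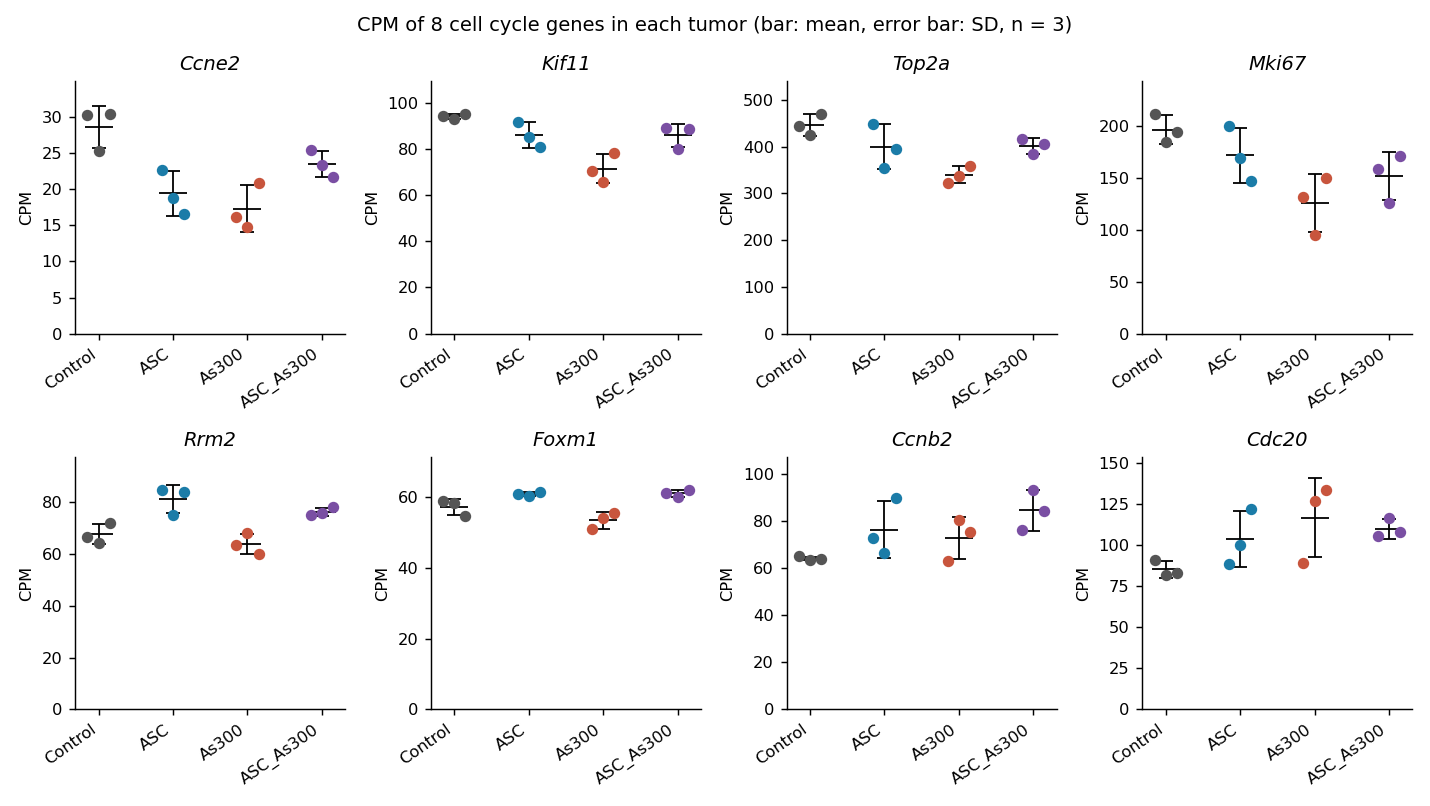
CPM of 8 genes in each tumor (points), with the mean (bar) and SD (error bar) of each group, n = 3. Ccne2 was highest in Control and lowest in As300, Kif11, Top2a and Mki67 were lowest in As300, and every tumor with ASC lay above every tumor without for Rrm2 (74.9 CPM and over against 72.0 CPM and under) and Foxm1.

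ASC_As300 against As300 asked what ASC did in mice that drank iAs. None of the 33 was called with edgeR, beside a background of 0.855%, and none with DESeq2. At an unadjusted p under 0.05, 9 were higher and 0 lower, against 6.33% and 3.65% of all genes. Groups did not overlap for 11 higher and 0 lower genes, against 11.3% and 8.37% of all genes, and the median was 0.13 against 0.00. Rrm2 held 63.4, 67.9 and 60.1 CPM in As300 and 75.1, 75.6 and 78.0 CPM in ASC_As300 (log2 fold change 0.26, SE 0.08, edgeR adjusted p = 0.239). Kif11 lay above the As300 values in all 3 ASC_As300 tumors, at 88.9, 80.1 and 88.5 CPM (log2 fold change 0.26, SE 0.08, edgeR adjusted p = 0.249). Kif20a, a motor of cytokinesis, held 73.6, 91.3 and 96.3 CPM and 104, 108 and 112 CPM (log2 fold change 0.31, SE 0.11, edgeR adjusted p = 0.320). Foxm1, the activator of the mitotic program, held 51.0, 54.1 and 55.6 CPM and 61.3, 60.2 and 62.2 CPM (log2 fold change 0.19, SE 0.07, edgeR adjusted p = 0.325). All 4 genes were separate between the groups without passing the adjusted test. The correlation with length had the opposite sign here, 0.52 over the 33 genes and 0.16 over all protein-coding genes.

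ASC_As300 against ASC asked what iAs did in tumors with ASC. The groups were close, with a median of 0.01 (-0.01 for all genes), 17 genes higher and 16 lower. No gene of the 33 was called with edgeR, beside a background of 0.0%, nor with DESeq2. At an unadjusted p under 0.05, 0 were higher and 1 lower, against 1.47% and 1.74% of all genes. That gene was Cdc6, which loads the helicase onto origins, at 32.3, 34.4 and 35.7 CPM in ASC and 30.5, 28.8 and 30.0 CPM in ASC_As300 (log2 fold change -0.20, SE 0.09). Ccne2 (0.28, SE 0.15), Ccnb2 (0.15, SE 0.12) and Tpx2 (0.12, SE 0.10), which encodes a spindle assembly factor, had the next smallest p, and the adjusted p of edgeR was 1.00 for all 4 genes. Tpx2 held 127, 104 and 126 CPM in ASC and 135, 124 and 130 CPM in ASC_As300, with overlap.

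Averaged over both levels of iAs, the ASC main effect placed 29 of the 33 genes higher and 4 lower, with a median of 0.07 (0.00 for all genes, of which 49.0% were higher). None was called at 1.5-fold with edgeR or DESeq2, beside a background of 1.45%. At an unadjusted p under 0.05, 8 were higher and 0 lower, against 6.93% and 3.96% of all genes. Rrm2 had an adjusted p under 0.05 (log2 fold change 0.26, SE 0.05, 1.20-fold, edgeR adjusted p = 0.0290), which is below the size needed for a call. Its 6 tumors with ASC ran from 74.9 to 84.7 CPM (median 76.8) and its 6 tumors without from 60.1 to 72.0 CPM (median 65.5). Foxm1 followed (log2 fold change 0.14, SE 0.05, edgeR adjusted p = 0.240), with 60.2 to 62.2 CPM (median 61.1) against 51.0 to 58.9 CPM (median 55.2). Rrm2 and Foxm1 were the 2 genes of the 33 whose tumors with and without ASC did not overlap, where 1.89% of all genes did not in either direction. Ccnb2 (0.23, SE 0.09, adjusted p = 0.302) and Kif20a (0.20, SE 0.08, adjusted p = 0.309) were next in edgeR's order. All 5 genes of the G2/M cyclins, Cdk1 and Foxm1 and all 8 mitotic kinases and genes of the checkpoint and anaphase were higher, with medians of 0.14 and 0.11. The correlation with length was weaker than against Control, at -0.35, and 0.00 after correction for GC content and length.

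The iAs main effect, averaged over tumors with and without ASC, gave 13 genes higher and 20 lower (median -0.01, -0.02 for all genes). None was called with edgeR, beside a background of 0.0%, and at an unadjusted p under 0.05 there were 2 higher and 5 lower, against 7.51% and 8.46% of all genes. DESeq2 called none of the 33. Mki67 (-0.42, SE 0.12, adjusted p = 0.181), Kif11 (-0.20, SE 0.06, adjusted p = 0.183), Bub1 (-0.24, SE 0.07, adjusted p = 0.186) and Top2a (-0.19, SE 0.06, adjusted p = 0.203) had the smallest p in edgeR. The 6 tumors with iAs and the 6 without did not overlap for 1 gene, Cdc6, where 0.447% of all genes did not. Cdc6 ran from 28.8 to 30.5 CPM (median 30.2) with iAs and from 30.6 to 35.7 CPM (median 34.5) without, and its adjusted p of edgeR was 0.207.

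The interaction asked whether iAs acted differently in tumors with ASC. None of the 33 was called with edgeR, beside a background of 0.0%, and at an unadjusted p under 0.05 there were 4 higher and 1 lower, against 7.08% and 6.55% of all genes. Ccne2 had the largest interaction of the 33, as iAs went with a lower level without ASC (-0.73) and a higher one with ASC (0.28). The difference of these was 1.00 (SE 0.22, edgeR adjusted p = 0.309), and DESeq2 gave 0.98 with an adjusted p of 0.00959. DESeq2 called 29 genes higher and 145 lower of 33928 in the interaction. By p-value, Kif11 (0.40, SE 0.12), Top2a (0.40, SE 0.13) and Mcm5 (-0.34, SE 0.14) followed, with edgeR adjusted p of 0.309, 0.309 and 0.342. A correlation with length of 0.72 over the 33 genes and of 0.28 over all protein-coding genes ran through the interaction as well, and Kif11 and Top2a came to 0.02 and 0.04 after correction for GC content and length.

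Other genes of the same pathways were read from 6 lists that share no gene with the 33, of 112 genes, all tested. None was called in any comparison by edgeR, while DESeq2 called 5 in As300 against Control (where it called 495 higher and 321 lower of 33928 genes) and 1 in ASC_As300 against As300 (308 and 91). In As300 against Control, 10 were higher and 32 lower at an unadjusted p under 0.05, where all genes gave 11.2% and 13.0%, with a median of -0.10 against -0.03 for all genes. At that p, the 42 other mitotic genes gave 1 higher and 13 lower, the 29 other replication genes 2 and 8, the 12 E2F and pocket proteins 1 and 4, the 14 checkpoint genes and p53 targets 2 and 4, the 8 G1 cyclins and kinases 1 and 2, and the 7 CDK inhibitors 3 and 1. The inhibitors of cyclin-dependent kinases were split. Cdkn1a, which encodes p21, stood at 46.2, 45.6 and 47.0 CPM in Control and 69.6, 59.4 and 59.1 CPM in As300 (log2 fold change 0.44, SE 0.09, edgeR adjusted p = 0.0430). Cdkn1b, which encodes p27, stood at 48.9, 50.7 and 47.4 CPM in Control and 35.7, 31.9 and 35.8 CPM in As300 (log2 fold change -0.51, SE 0.11, edgeR adjusted p = 0.0430). Neither reached 1.5-fold, and in each the groups did not overlap.

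The 2 genes of each other list with the smallest p in As300 had log2 fold changes of -0.46 for Pola1 and -0.37 for Pole (subunits of DNA polymerases), -0.37 for Hmmr and -0.42 for Ect2, 0.31 for Ccnd3 (cyclin D3) and -0.48 for Rb1, -0.54 for Lin54 and -0.38 for Rbl2 (both of the DREAM complex), and -0.56 for Atr (the replication stress kinase) and 0.61 for Phlda3. Of these, Pola1, Pole, Hmmr, Ect2 and Atr had edgeR adjusted p of 0.0430 to 0.0453. Of the 112, 11 were higher and 7 lower in ASC at an unadjusted p under 0.05 (8.55% and 6.87% of all genes), and 11 and 6 in ASC_As300 (8.70% and 6.50%). Cdkn1a was also above Control there, by 0.36 in ASC (edgeR adjusted p = 0.0951) and 0.40 in ASC_As300 (edgeR adjusted p = 0.0548), as was Ccnd3 by 0.28 and 0.41. In ASC the other genes with the smallest p of their list were Cdc25a (-0.20), E2f8 (-0.17), Mybl2 (0.17), Cdkn1b (-0.24), Fen1 (0.32), Gins3 (-0.28), Kif18b (0.25), Ect2 (-0.32), Ccng1 (-0.31) and Phlda3 (0.40). In ASC_As300 they were Cdc25a (-0.12), Lin54 (-0.36), E2f4 (0.20), Cdkn2d (0.41), Rfc3 (0.29), Pola1 (-0.26), Cdca5 (0.34), Nek2 (0.29), Ccng1 (-0.35) and Phlda3 (0.39). None of these passed the adjusted test.

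Markers of other cell types were summed in each tumor. The sum of 10 leukocyte markers was 513, 399 and 266 CPM in Control replicates 1, 2 and 3. It was 328 to 493 CPM in ASC, 302 to 362 CPM in As300 and 387 to 479 CPM in ASC_As300. The upper end of Control was replicate 1, which also stood apart in B and plasma cell markers. Against the mean of Control, 6 of the 10 markers were higher in ASC, 2 in As300 and 6 in ASC_As300. Cd8a, chosen after its values were seen, was at 15.8 CPM in Control replicate 1 and 1.74 to 2.32 CPM in the others. Its level was 0.94 to 2.14 CPM in As300 and 8.67 to 20.8 CPM in the 6 tumors with ASC. The sum of 6 neuronal markers was 58.1 to 76.0 in Control and 85.7 to 141 in the other groups, without overlap. For 5 germinal centre markers, whose cells divide fast, it was 103 to 117 in Control, 108 to 126 in ASC and 110 to 125 in As300, and the ASC_As300 tumors (120 to 132) were all above Control. Endothelial markers summed to 193 to 216 in Control and 155 to 262 in the other groups. The 4 adipocyte markers summed to 29.7 to 79.2 in Control, above all As300 tumors (5.33 to 15.0) and all ASC_As300 tumors (0.503 to 10.4), while ASC replicate 2 reached 148 and the other ASC tumors 3.50 and 3.94. The 8 epithelial and prostate markers summed to 63.8 to 78.5 in the 6 tumors with ASC, below the 112 to 397 of the 6 without. The part of these cells in the results for the 33 genes was not tested.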

How the data were processed

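RNA-seq data from 12 TC2Ras tumors of separate mice (4 groups of 3) were processed again from the deposited gene counts. Per the labels and the methods of the study, the authors made stranded poly(A) libraries, and the paired-end reads went through Cutadapt for trimming, HISAT2 (2.0) for alignment and StringTie (1.3.4) for quantification. How counts were made from these, the build and the annotation are not given in the sources used here. The deposited counts are whole numbers without normalization.

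Symbols (55141 of 55401 genes), coordinates, principal transcript lengths and GC content came from GENCODE M21 (GRCm38). The 33 genes, the lists and the rule for named genes (genes called, and the 4 with the smallest p per comparison) were chosen with earlier results of these data known. Genes were filtered with filterByExpr, normalized by TMM and tested with the quasi-likelihood F test of edgeR 4.0.16 (R 4.3.3), 1 mean per group. Log2 CPM carried a prior count of 2. Alternatives were DESeq2 1.42.0, other filters, lowess corrections (span 0.3) for GC content and, added after seeing the data, length, a replicate block and leaving out each tumor. Permuting 3 against 3 tumors allows no p-value below 0.1, so p-values come from fitted models. Scripts were tested on simulated data.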

Additional observations from a re-analysis of the deposited data

Results flagged for a closer look

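Ccne2 drew attention because DESeq2, but not edgeR, called a difference in the effect of iAs between tumors without and with ASC. Over all genes, DESeq2 called 29 higher and 145 lower of 33928 in that interaction. Of 22 fits, 1 called the interaction of Ccne2, and its estimate ran from 0.725 to 1.134 over them. The interaction was 0.98 on the log2 scale in the DESeq2 Wald test (SE 0.23, adjusted p = 0.00959) and 1.00 in edgeR (SE 0.22), where it did not pass (adjusted p = 0.309). Every As300 tumor (14.8 to 20.9 CPM) was below every Control tumor (25.3 to 30.4 CPM), whereas the ASC_As300 tumors (21.7 to 25.4 CPM) overlapped with the ASC tumors (16.6 to 22.7 CPM) and 2 of 3 lay above them. The cause was not tested.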

How the results depend on the processing

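The median log2 fold change of the 33 genes kept to within 0.0583, the spread between tumors of a group, under most alternatives. For As300 against Control it was 0.037 with the GC correction, 0.039 with the GC correction and a replicate block, and 0.045 with the correction for GC content and length, in place of -0.04. With 1 tumor left out it ran from 0.038 to 0.159 in ASC, from 0.047 to 0.142 in ASC_As300 against As300, from -0.048 to 0.066 in ASC_As300 against ASC and from -0.05 to 0.057 in the interaction. The values 0.038, 0.066 and 0.057 were obtained without ASC replicate 3 and 0.047 without As300 replicate 1.

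The number of genes called lower in As300 was 1 in the main analysis. It was 3 with no minimum of the fold change, where 265 of 20818 genes were called lower. It was 2 with unadjusted p and at least 1.5-fold (764 of 20818). So it was with at least 10 counts in every tumor (115 of 15722) and with DESeq2 (321 of 33928). The 2 genes were Ccne2 and Mki67 each time. No filter on low counts (0 of 33928), the 6 tumors compared alone (34 of 19365) and the length correction (5 of 20818) gave 0. Correction for GC content, alone, with length or with the replicate block, also gave 0, beside 0 of 20818 genes called lower. With 1 tumor left out the number called lower was 0 to 2, and 0 to 1 were called higher. The latter was Cdc20 without As300 replicate 1, where 90 of 21765 genes were called higher. In ASC, 0 to 1 were called lower (Ccne2, without ASC replicate 1, where 57 of 21817 genes were called lower). The ASC main effect gave 1 gene higher with no minimum of the fold change (368 of 20818 over all genes). The interaction gave 1 higher with unadjusted p and at least 1.5-fold (438 of 20818) and 1 with DESeq2 (29 of 33928). Ccne2 in As300 was called in 7 of 23 fits, with adjusted p from 0.000725 to 0.21. Over all genes, As300 gave 146 calls higher and 74 lower, against 1 and 0 with the GC correction and 0 and 0 without Control replicate 1, 2 or 3. Kif11 in the iAs main effect turned from -0.20 to 0.007 with the correction for GC content and length (adjusted p = 0.982). The cause was not tested.

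Same-numbered tumors of different groups had correlations of -0.124 to 0.172 in their deviations from the group means. Tumors of different numbers were not compared in this way, and whether those of the same number shared a batch was not tested. With the replicate block, 2 genes were called lower in As300 (Ccne2 and Mki67) in place of 1.

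The 33 genes held at least 584 counts in every tumor, and with 3 tumors a group the median SE of their log2 fold changes was 0.10.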
